A study of Homo sapiens with 6 samples.

Results

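MUC5AC, MUC5B and MUC1 are mucin genes, and they were looked up by symbol in an RNA-sequencing table of 58735 genes from MDA-MB-231 cells, where each has 1 row. They were selected on measured values: MUC5AC and MUC5B had the largest rises after irradiation among the protein-coding genes called higher without overlap between groups, so every value of the dose difference for these 3 genes is a description and carries no test. MDA-MB-231 is an established human line from a breast adenocarcinoma. All 6 libraries came from the line labelled SCR, with the genotype given as WT, and the study describes SCR cells as carrying a non-targeting short hairpin RNA. The groups were 3 libraries from cells that received 0 Gy in a caesium gamma irradiator and 3 from cells that received 10 Gy, with RNA taken 24 h later. The labels do not say that the replicates were separate cultures, so p-values measure the spread between these libraries, which may be technical.

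Mucins are glycoproteins built around long stretches of serine, threonine and proline, on which dense O-linked sugar chains are assembled in the Golgi. MUC5AC and MUC5B are the gel-forming mucins of airway mucus, secreted by goblet and submucosal gland cells. Their cysteine-rich ends link the chains into polymers that are packed into granules and released on stimulation. MUC1 stays in the membrane at the cell surface, with a short cytoplasmic tail that binds signalling proteins, and it is widely known as a tumour antigen of breast epithelium.

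MUC5AC (ENSG00000215182) lies on the plus strand of GRCh38 at chr11:1157953-1201138, and MUC5B (ENSG00000117983) follows it on the same strand at chr11:1223066-1262172, 21928 bases further on. MUC1 (ENSG00000185499) lies on the minus strand at chr1:155185824-155192916. In GENCODE 29 the longest coding transcript of MUC5AC has 49 exons and 16962 coding bases, and that of MUC5B has 49 exons and 17286 coding bases. The longest coding form among 29 annotated transcripts of MUC1 has 11 exons and 3786 coding bases. In both gel-forming mucins 1 exon, the 31st, holds most of the transcript, with 10371 bases (59.4%) in MUC5AC and 10893 bases (60.8%) in MUC5B. Codons for serine, threonine and proline made up 45.5% of MUC5AC, 41.8% of MUC5B and 44.1% of MUC1, against a median of 18.7% over 18822 genes. Codons for cysteine made up 5.20% of MUC5AC and 4.76% of MUC5B but 0.238% of MUC1, against a median of 2.04%. So the members share the sugar-bearing composition, and the gel-forming pair alone is rich in the residue that forms polymer links. Translated and aligned, MUC5AC and MUC5B were identical at 62.7% of aligned positions over their first 1000 residues, 40.6% over their last 1000 and 47.5% over the whole length.

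The sugar-bearing stretch is repetitive, and its repeat unit is what differs most visibly between the members. Consecutive units of the coding strand are shown 5′ to 3′, read from the GENCODE 29 transcripts, with capitals at positions that are the same in all 4 units shown and lower case where they differ. In MUC5AC the unit was 24 bases (8 codons), and 4139 bases (24.4% of the coding sequence) matched a copy 24 bases away at the 80% required. The units shown are in exon 31, at chr11:1186813-1186908 on the plus strand.
MUC5AC unit 1: ACCAGtACAACCTCTGCtCCTACA
MUC5AC unit 2: ACCAGaACAACCTCTGCtCCTACA
MUC5AC unit 3: ACCAGcACAACCTCTGCcCCTACA
MUC5AC unit 4: ACCAGcACAACCTCTGCcCCTACA

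MUC5B had a longer and less regular unit of 87 bases, with 726 bases (4.20% of the coding sequence) in repeats at the same requirement. The units shown share 53 of 87 positions and lie in exon 31, at chr11:1249934-1250281 on the plus strand.
MUC5B unit 1: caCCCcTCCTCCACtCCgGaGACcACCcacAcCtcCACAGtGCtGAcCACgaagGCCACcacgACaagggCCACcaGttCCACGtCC
MUC5B unit 2: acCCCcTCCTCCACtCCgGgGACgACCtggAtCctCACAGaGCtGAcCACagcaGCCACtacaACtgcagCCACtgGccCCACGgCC
MUC5B unit 3: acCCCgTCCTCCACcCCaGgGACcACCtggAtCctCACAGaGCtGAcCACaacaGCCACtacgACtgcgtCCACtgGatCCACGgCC
MUC5B unit 4: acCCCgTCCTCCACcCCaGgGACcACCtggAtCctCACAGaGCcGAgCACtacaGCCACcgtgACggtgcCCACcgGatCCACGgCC

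The MUC1 unit was 60 bases (20 codons) and almost invariant, with 2628 bases (69.4% of the coding sequence) in repeats. The units shown share 59 of 60 positions and lie in exon 5 of that transcript, at chr1:155189305-155189544 on the minus strand.
MUC1 unit 1: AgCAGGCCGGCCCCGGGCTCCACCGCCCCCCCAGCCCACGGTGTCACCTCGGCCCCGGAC
MUC1 unit 2: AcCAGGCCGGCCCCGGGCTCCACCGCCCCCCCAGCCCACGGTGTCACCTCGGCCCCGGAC
MUC1 unit 3: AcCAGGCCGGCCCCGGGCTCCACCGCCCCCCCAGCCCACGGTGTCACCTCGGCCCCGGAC
MUC1 unit 4: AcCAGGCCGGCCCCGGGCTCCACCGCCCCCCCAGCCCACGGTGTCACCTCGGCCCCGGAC

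These repeats bear on what reads can show. Of the stretches of 31 bases in each transcript, 30.9% in MUC5AC, 36.4% in MUC5B and 48.2% in MUC1 occurred more than once within the same transcript. The share found in any other gene was 0.729% for MUC5AC (127 stretches, in MUC5B), 3.12% for MUC5B (558 stretches, in MUC5AC or MUC5B-AS1) and 0.435% for MUC1 (18 stretches, in AL713999.1). Reads in those shared stretches could be split between genes, and whether the libraries keep the strand is not given in the sources used here. MUC5B-AS1 and AL713999.1, which overlap MUC5B and MUC1, were listed at 0 in all 6 libraries.

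MUC5AC was the most abundant of the mucin genes looked up. Its level, in fragments per kilobase of gene scaled to library size (FPKM), was 3.36, 4.42 and 5.15 in the 0 Gy libraries and 19.3, 19.5 and 14.2 in the 10 Gy libraries. The groups did not overlap, and the lowest 10 Gy library stood 2.76 times above the highest 0 Gy library. The means were 4.31 ± 0.90 (SD, n = 3) and 17.7 ± 3.00 (SD, n = 3), a ratio of 4.10, and the difference in mean log2(FPKM + 1) was 1.82. These levels rest on 1249, 1185 and 1945 reads at 0 Gy and on 10092, 6200 and 5368 reads at 10 Gy. In these bulk libraries more cells making a transcript and more of it per cell cannot be told apart.

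MUC5B followed at about the same ratio from a lower level. It was at 1.39, 1.82 and 1.91 FPKM at 0 Gy and at 6.46, 8.03 and 5.50 FPKM at 10 Gy, from 520 to 770 and from 2215 to 3593 reads. Here too every 10 Gy library was above every 0 Gy library, by at least 2.88 times. The means were 1.71 ± 0.277 (SD, n = 3) and 6.66 ± 1.28 (SD, n = 3), a ratio of 3.90, with a difference of 1.49 on the log2(FPKM + 1) scale.

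MUC1 was close to the floor of detection. Its level was 0.199, 0.207 and 0.235 FPKM at 0 Gy, from 20, 15 and 24 reads, and 0.397, 0.348 and 0.264 FPKM at 10 Gy, from 56, 30 and 27 reads. The groups did not overlap, but the lowest 10 Gy library was only 1.13 times the highest 0 Gy library. The means were 0.214 ± 0.0189 (SD, n = 3) and 0.337 ± 0.0671 (SD, n = 3), a ratio of 1.58. From the summed reads the ratio was 1.6, with a 95% exact interval of 1.16 to 2.23 that covers counting error only. On the log2(FPKM + 1) scale the difference was 0.14, since the added 1 exceeds the level itself.

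**Figure D1:**
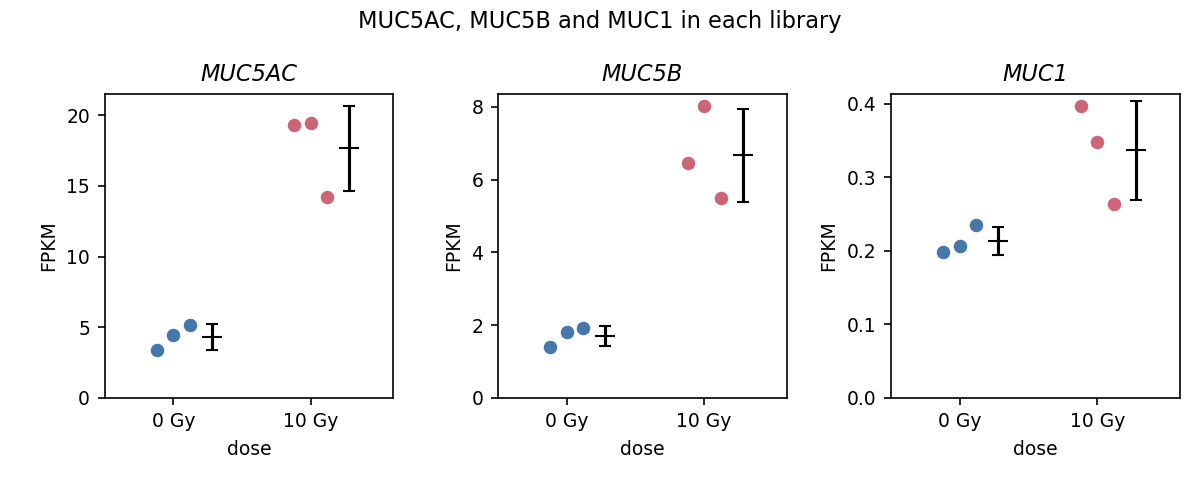
Level in FPKM (vertical axes, each from 0) of MUC5AC, MUC5B and MUC1 in the 3 libraries at 0 Gy (blue) and the 3 at 10 Gy (red), with the mean and SD in black. The 10 Gy points of MUC5AC lie between 14.2 and 19.5 against 3.36 to 5.15 at 0 Gy, and no member's groups overlap.

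Reads thinned to the 15643641 of the shallowest library gave the same order, and the groups again did not overlap. MUC5AC then had 868, 1185 and 1414 reads at 0 Gy and 5479, 5548 and 3944 at 10 Gy. MUC1 had 16, 15 and 17 against 31, 25 and 25.

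The members kept their rank order in all 6 libraries, MUC5AC above MUC5B above MUC1. On FPKM, which is per length, MUC5AC stood 2.41 to 2.69 times above MUC5B at 0 Gy and 2.42 to 2.99 times at 10 Gy, so that these ranges overlap. Against MUC1 the gap was wider at 10 Gy, going from 16.9 to 21.9 times at 0 Gy to 48.7 to 55.9 times at 10 Gy for MUC5AC, and from 7.0 to 8.79 times to 16.3 to 23.1 times for MUC5B. In the 10 Gy group replicate 3 had the lowest value of each member, and in the 0 Gy group replicate 1 did. Over the 6 libraries, which fall into 2 dose groups, Pearson's r of log2(FPKM + 1) was 0.994 for MUC5AC and MUC5B, 0.918 for MUC5AC and MUC1, and 0.890 for MUC5B and MUC1, given as a description.

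Against the whole table, 12128 genes whose mean reached 1 FPKM entered the limma fit, and 4317 of them (35.6%) differed between doses at a Benjamini-Hochberg adjusted p under 0.05. Of all tested genes 11.9% (1443) were called higher at 10 Gy and 23.7% (2874) lower, and 19.1% (2311) had every 10 Gy library above every 0 Gy library. That split depends on scaling: it was 3923 higher and 122 lower with upper quartile scaling, and 3113 higher and 1066 lower with TPM. MUC5AC and MUC5B passed the minimum level and MUC1 did not, so 2 of the 3 members were among the tested genes, and nothing is read from their place there. MUC5AC stood above 36% of tested genes in mean level at 0 Gy and above 76.9% at 10 Gy. MUC5B moved from above 13.1% to above 48.6%. In the order of rises among the 1273 protein-coding genes called higher without overlap, MUC5AC was 1st and MUC5B 2nd. That place restates how they were selected. The next gene lay below them. That gene was PTGES, the synthase of prostaglandin E, at 50.0 FPKM and 99.8 FPKM and a difference of 0.99. PPL, the desmosomal linker periplakin (0.78), BCAM, a laminin receptor (0.76), STC1, the secreted hormone stanniocalcin (0.73), and LRP1, an endocytic receptor (0.72), came after it. A single tested gene of any kind, the miRNA gene MIR3186 at 1.84, had a larger difference than MUC5AC.

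**Figure D2:**
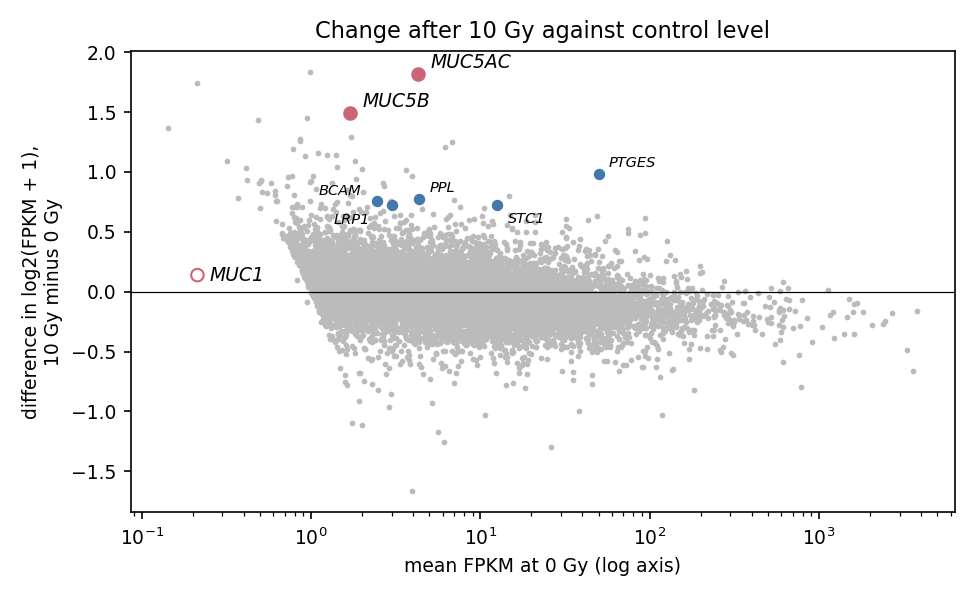
Difference in mean log2(FPKM + 1), 10 Gy minus 0 Gy (vertical axis), against the mean FPKM at 0 Gy (horizontal log axis) for the 12128 genes tested (grey), with MUC5AC and MUC5B filled in red, MUC1 (not tested) as an open red ring and the next 5 genes in the order of rises in blue. MUC5AC at 1.82 and MUC5B at 1.49 lie above PTGES at 0.99, and other grey points above PTGES are genes that were not protein-coding, not called or overlapping.

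MUC5AC and MUC5B are members of a cluster of gel-forming mucin genes that spans 249352 bases from MUC6 to MUC5B, and the other 2 genes of the cluster were almost silent. MUC2, the gel-forming mucin of the colon, lies 47442 bases before MUC5AC at chr11:1074875-1110511. It had 6, 1 and 3 reads at 0 Gy and 66, 50 and 25 reads at 10 Gy, with no overlap in FPKM (0.0128 ± 0.00868 and 0.161 ± 0.0637, SD, n = 3). The ratio of its summed reads per depth was 11.8, with a 95% exact interval of 6.22 to 25.1 for counting error, and it missed the threshold in limma without a minimum level (adjusted p = 0.0503). MUC6, the gastric gland mucin at chr11:1012821-1036706, had 9, 4 and 19 reads against 63, 30 and 13, and its groups overlapped (adjusted p = 0.274 in the same limma fit). TOLLIP, the first tested gene past MUC5B at a distance of 12199 bases and an adaptor that dampens Toll-like receptor signalling, was at 19.9 ± 0.870 and 20.7 ± 0.740 FPKM (SD, n = 3), a difference of 0.06 (limma adjusted p = 0.336). Its groups overlapped. At the other end of the cluster those of MUC6 did too, but the ratio of its summed reads per depth was 2.77. The 95% exact interval of that ratio was 1.85 to 4.25 for counting error. The remaining genes within 100 kb of MUC5AC or MUC5B were below the minimum, with MIR6744, inside MUC5B, and AC136297.1 listed at 0 in all libraries and TOLLIP-AS1 under 1 FPKM at both doses.

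Most mucins outside the cluster were also low. None of 7 secreted mucin genes other than the members (MUC2, MUC6, MUC19, MUC7, MUCL1, MUCL3 and OVGP1), and none of 10 other transmembrane mucin genes, reached the minimum of 1 FPKM in its mean over the 6 libraries. OVGP1, the oviduct glycoprotein, came nearest, at 0.495 ± 0.142 and 1.05 ± 0.119 FPKM (SD, n = 3) without overlap. In limma its adjusted p was 0.0177 with the minimum lowered to 0.1 FPKM and 0.0479 with none. MUC4, a large membrane mucin that binds ERBB2, had 11, 31 and 36 reads at 0 Gy and 115, 69 and 60 at 10 Gy without overlap in FPKM. It missed the threshold in both limma fits (adjusted p = 0.238 and 0.108). MUC22 went the other way, with 4, 2 and 6 reads against 3, 0 and 0, a ratio of 0.209 with a 95% exact interval of 0.0378 to 0.774 for counting error (limma adjusted p = 0.275). MUC3A, MUC12, MUC16, MUC19 and MUC20 had at most 4 reads in any library. MUC7, MUCL1, MUCL3, MUC13, MUC15, MUC17 and MUC21 were listed at 0 in all 6. More genes of any kind were above 0 at 10 Gy (24876 to 26496 per library) than at 0 Gy (22169 to 23975). The 10 Gy library with 24876 had 17570365 reads on genes, and the 0 Gy library with 23975 had 21856761. The share of all low genes that rose without overlap was not worked out.

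**Figure D3:**
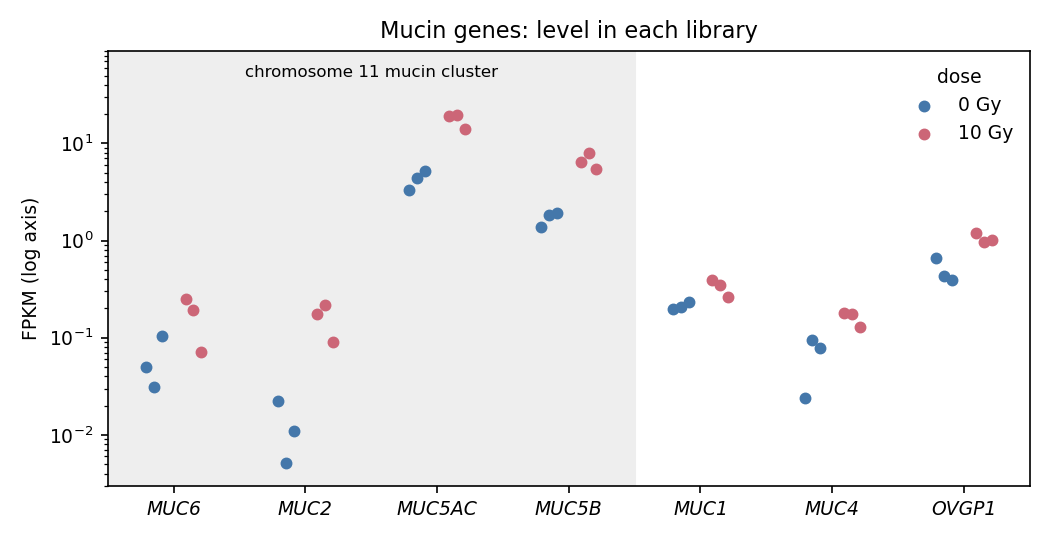
Level in FPKM (vertical log axis) of the 7 mucin genes with reads in every library, in the 3 libraries at 0 Gy (blue) and the 3 at 10 Gy (red), with the chromosome 11 cluster shaded. MUC5AC and MUC5B lie above 1 FPKM at both doses, and MUC6 alone of those drawn has overlapping groups.

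Around MUC1, 23 other genes lie within 100 kb, of which 11 were tested, and 3 of the 11 were called, against 35.6% of all tested genes. Of those, FAM189B was higher by 0.22 (limma adjusted p = 0.00446). DPM3, a subunit of the synthase of dolichol-phosphate mannose, fell (difference -0.43, adjusted p = 0.00597). Those not called, among them MTX1, MTX1P1, SLC50A1, EFNA1, SCAMP3, CLK2 and HCN3, had differences between -0.09 and 0.28. TRIM46, the nearest gene without overlap at 853 bases, and THBS3 at 2672 bases were below the minimum.

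The RefSeq promoter table of GRCh38.p14 matched 1 of the 3 members, MUC1, and also MUC2 of the cluster. The 250 bases before each start are shown 5′ to 3′ on the gene's strand, with capitals at matches to the motifs searched, because the reads of both genes were higher at 10 Gy. The MUC1 stretch is chr1:155192916-155193165 on the minus strand and the MUC2 stretch chr11:1074624-1074873 on the plus strand.
MUC1 promoter: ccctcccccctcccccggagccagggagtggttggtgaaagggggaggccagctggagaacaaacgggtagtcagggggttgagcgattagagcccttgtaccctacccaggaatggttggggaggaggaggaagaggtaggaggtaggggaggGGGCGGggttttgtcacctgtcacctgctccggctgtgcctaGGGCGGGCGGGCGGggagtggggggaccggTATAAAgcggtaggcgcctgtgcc
MUC2 promoter: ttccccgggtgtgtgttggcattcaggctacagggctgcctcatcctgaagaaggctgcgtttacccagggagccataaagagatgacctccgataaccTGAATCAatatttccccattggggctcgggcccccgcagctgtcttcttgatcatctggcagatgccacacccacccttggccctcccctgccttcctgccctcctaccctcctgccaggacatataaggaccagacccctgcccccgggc

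The letters searched, on both strands, were TGANTCA (AP-1), TGACGTCA (CRE), GGNNTTTCC and GGGNNTTCC (kappaB-like), TTCNNNGAA (STAT), GGGCGG (Sp1), the start-site box TATAAA, and TGACNNNGC (MAF and NRF2). The MUC1 stretch held GGGCGG 4 times, at 96, 54, 50 and 46 bases before the start, with the last 3 overlapping, and TATAAA once, at 24 bases before it. GGGCGG was found in 42.3% and TATAAA in 11.1% of 27305 promoters of this length. The MUC2 stretch held TGANTCA once, at 151 bases before the start, as did 6.60% of promoters. The other letters were not in these windows.

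Mucins need enzymes that add sugars, and the cells expressed many of them. The first step, N-acetylgalactosamine on serine or threonine, is made by the GALNT family. Of 20 genes of O-glycan initiation 10 were tested, and 4 were called lower and 0 higher, against 23.7% and 11.9% over all tested genes, so that the share called was near the 35.6% over all. The median difference was -0.07, against -0.04 over all tested genes, and no tested member had a difference above 0. GALNT18 (4.83 ± 0.239 and 3.24 ± 0.208 FPKM, SD, n = 3), GALNT3 (difference -0.35) and GALNT13 (-0.18) had the largest falls among the called genes. With upper quartile scaling 1 was called lower, GALNT18, and 1 higher, GALNT7.

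Of 23 genes that extend and cap the chains 13 were tested, with 1 called higher and 5 lower, against 11.9% higher and 23.7% lower over all tested genes. The median difference was -0.12, against -0.04 over all. B4GALT5, a galactosyltransferase, rose from 38.8 ± 1.23 to 52.9 ± 1.38 FPKM (SD, n = 3; limma adjusted p = 0.000593). ST3GAL1 (-0.33) and ST3GAL4 (-0.28), which cap chains with sialic acid, and GCNT1 (-0.20), which branches them, had the largest falls among the called genes. C1GALT1, which makes the common core, and its chaperone C1GALT1C1 were lower by a difference of -0.17 each. None of these falls was called with upper quartile scaling, where 4 were called higher, and without 10 Gy replicate 1 the calls of this group fell from 6 to 2.

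Folding, packing and release of secreted mucins were covered by 21 genes, of which 16 were tested, with 5 called higher and 3 lower, against 11.9% and 23.7% over all tested genes. The median difference was -0.03, against -0.04 over all. The largest rises were those of TGM2, a transglutaminase that crosslinks proteins (54.6 ± 1.65 and 73.4 ± 2.21 FPKM, SD, n = 3), CREB3L1, a membrane-bound activator of secretory genes (11 ± 0.159 and 14.1 ± 0.536 FPKM), and RAB3D, a GTPase of secretory granules (2.15 ± 0.210 and 2.95 ± 0.258 FPKM). ERN1, a sensor of unfolded protein in the endoplasmic reticulum, was also called higher. XBP1, the factor that ERN1 activates by splicing, was lower (difference -0.24), as were UNC13D and VAMP8, both of granule docking and fusion (-0.18 each). AGR2, the disulfide isomerase used in mucin folding, was at 2.55 ± 0.224 and 2.51 ± 0.175 FPKM (limma adjusted p = 0.860). With upper quartile scaling 6 were called higher and 0 lower, and without 10 Gy replicate 1 or 2 the calls fell from 8 to 5.

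MUC1 is cut at the cell surface by sheddases, and its tail binds kinases and catenins. Of 19 such genes 18 were tested, with 4 called higher and 2 lower, a share (33.3%) near the 35.6% called over all tested genes. The median difference was 0.02, against -0.04 over all. JUP, the junction protein gamma-catenin, rose from 18.6 ± 1.29 to 26.6 ± 0.652 FPKM (SD, n = 3; limma adjusted p = 0.000960). The kinase SRC (0.29) and beta-catenin, CTNNB1 (0.22), rose as well, and so did the sheddase ADAM10 (0.12). ADAM9 (-0.10) and TOMM70 (-0.12), a mitochondrial import receptor, were lower. With TPM neither was called, and their differences were 0.02 and 0.007. ADAM17, a known MUC1 sheddase, was at 4.17 ± 0.0606 and 4.0 ± 0.0976 FPKM (limma adjusted p = 0.409). The counts moved to 12 higher and 0 lower with upper quartile scaling, and to 3 higher and 0 lower without 10 Gy replicate 1 and without 10 Gy replicate 2.

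Among 33 signals and factors known to act on MUC5AC or MUC5B, 29 were tested, with 3 called higher and 11 lower, against 11.9% and 23.7% over all tested genes. The median difference was -0.11, against -0.04 over all. The ligands EGF (0.826 ± 0.0776 and 1.57 ± 0.0767 FPKM, SD, n = 3) and IL1B (3.13 ± 0.156 and 4.52 ± 0.447 FPKM) and the receptor NOTCH2 (22.5 ± 2.25 and 28.4 ± 0.805 FPKM) rose. EGF and IL1B are both known inducers of MUC5AC in airway cells, but their part in the mucin values was not tested. TGFA, AREG and IL1A, also of this list, were not called in the deposited FPKM. The AP-1 factors FOSL1 (271 ± 2.65 and 196 ± 7.45 FPKM) and JUN (56.0 ± 2.57 and 42.6 ± 1.00 FPKM) and the chemokine CXCL8 (66.2 ± 6.89 and 52.4 ± 3.39 FPKM) had the largest falls. SPDEF, the factor of goblet cell differentiation, SP1, CREB1, NFKB1, KLF4, the receptor chain IL4R and the EGF receptor ligands HBEGF and EREG were called lower too. The balance turned with upper quartile scaling, to 11 genes of the group called higher and 0 lower. SPDEF was then at -0.06 and FOSL1 at -0.21. TPM gave 8 higher and 5 lower. The factors STAT3, STAT6, HIF1A and FOXM1, not called in the deposited FPKM, were called higher with both of these scalings. EGF, IL1B and NOTCH2 were called higher with every scaling run.

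A smaller group of mucin-like membrane glycoproteins had 5 of 9 genes tested, with 0 called higher and 2 lower, a share near the 35.6% called over all tested genes. The median difference was -0.09, against -0.04 over all. PODXL, the anti-adhesive podocalyxin, fell from 51.1 ± 1.24 to 42.0 ± 1.12 FPKM (SD, n = 3; limma adjusted p = 0.00161), and the sialomucin CD164 was at 20.7 ± 0.104 and 19.4 ± 0.320 FPKM (adjusted p = 0.0436). SELPLG, the selectin ligand, had the highest difference, 0.19, and was not called (limma adjusted p = 0.376), and neither it nor PARM1, the other member above 0, had an unadjusted p under 0.05. Neither PODXL nor CD164 was called with upper quartile scaling, and CD164 also dropped out with TPM and median-of-ratios scaling. Of the 2 calls 1 was left without 0 Gy replicate 2, 0 Gy replicate 3, 10 Gy replicate 1 or 10 Gy replicate 2.

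**Figure D4:**
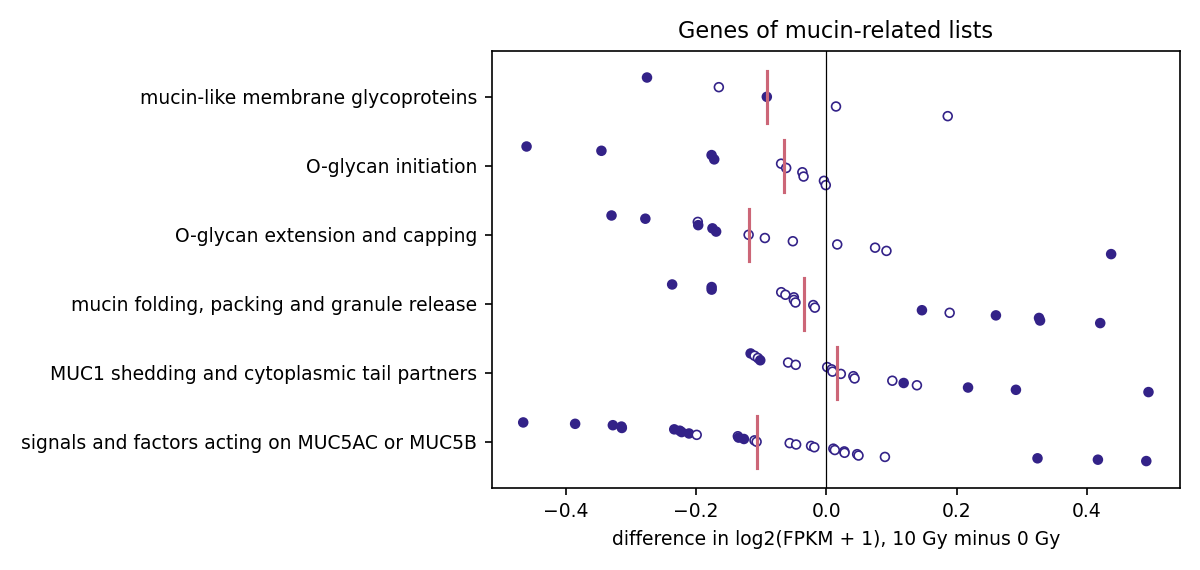
Difference in mean log2(FPKM + 1), 10 Gy minus 0 Gy (horizontal axis), of each tested gene in 6 mucin-related lists, filled where limma called it at an adjusted p under 0.05 and open otherwise, with the list median as a red bar. Medians lie between -0.12 and 0.02, and single genes between -0.47 and 0.49.

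Markers of secretory cells did not all move with the mucins. Of 17 markers of goblet and club cells 7 were listed at 0 in all libraries, among them the club cell protein SCGB1A1 and the goblet cell products CLCA1 and ZG16. In 3 of the others, TFF1, TFF2 and FCGBP, every 10 Gy library was above every 0 Gy library. Of these TFF1 and TFF2 were among the 4 markers tested, and 19.1% of all tested genes behaved in this way. TFF1 and TFF2, trefoil peptides secreted with mucins, rose from 1.08 ± 0.431 to 1.92 ± 0.297 FPKM and from 1.5 ± 0.104 to 2.07 ± 0.348 FPKM (SD, n = 3; limma adjusted p = 0.0466 and 0.0411). FCGBP, a mucus protein, was below the minimum at 0.441 ± 0.0732 and 0.734 ± 0.0188 FPKM. SPDEF went the other way, from 35.2 ± 3.11 to 28.1 ± 1.22 FPKM. The summed level of all 17 was 38.9 to 45.6 FPKM at 0 Gy and 35.4 to 38.3 FPKM at 10 Gy. Without SPDEF, the 1 marker lower without overlap, it was 6.15 to 6.90 and 8.54 to 9.09 FPKM. Leaving SPDEF out was not planned. The part of these markers in the mucin values was not tested.

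The labelled cell line was checked on 13 markers. VIM (301 ± 9.54 and 251 ± 3.88 FPKM, SD, n = 3), KRT18, KRT8 and CD44 were the high ones, and the lowest of them, CD44, was at 78.6 and 73.0 FPKM. The steroid receptors ESR1 and PGR were at 0.0140 FPKM or less in mean, and GATA3 was at 3.05 and 2.93 FPKM. KRT5 was listed at 0 and KRT14 nearly so, and EPCAM (1.44 and 1.34 FPKM) and CDH1 (0.324 and 0.366 FPKM), the epithelial adhesion genes, were low. Between 15643641 and 28861781 reads fell on genes in each library. The correlation of log2(FPKM + 1) was at least 0.992 within a dose and at most 0.989 between doses.

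Genes whose levels followed each member most closely over the 6 libraries were found by Pearson's r of log2(FPKM + 1) among tested protein-coding genes. The 6 points share the dose split, so a high r follows the dose difference as well as the order within doses. For MUC5AC these were RNF44, CBX5, MAPK8IP1, PLXNA3 and NDOR1, with r from 0.997 to 0.999 and differences between doses from 0.18 to 0.49. For MUC5B they were ZNF91, TNRC18, LRP1, ZNF431 and POFUT2, with r from 0.996 to 0.997 and differences from 0.26 to 0.72. LRP1 was thus both close to MUC5B in pattern and 7th in the order of rises. For MUC1 they were CASP8, PCDHGB2, PDE7A, C19orf66 and TFF2, with lower r, from 0.977 to 0.987, and differences from 0.11 to 0.29.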

How the data were processed

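FPKM values of 6 RNA-sequencing libraries were processed, grouped by the treatment in the sample labels, with 3 at each dose. The authors deposited these FPKM values from polyA libraries, and HISAT2 and GRCh38 are named in the submitters' processing notes. The counting program is not given in the sources used here. All 58735 identifiers matched GENCODE 29. FPKM multiplied by gene length and by the depth implied for the library gave whole reads (within 0.01) for 100% of values above 0. That implied depth was 0.973 to 0.991 of the reads on genes at 0 Gy and 1.03 to 1.04 of them at 10 Gy, a factor that follows the dose. Recovered reads were used for depth, thinning and counting intervals.

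Expression was compared with limma 3.58.1 in R 4.3.3 on log2(FPKM + 1), which understates changes of low genes, over genes whose mean reached 1 FPKM, with eBayes and an intensity trend. A gene was called where its p, adjusted over all tested genes by Benjamini-Hochberg, was under 0.05. Members and lists were chosen with earlier results of these data known, and lists are described by counts and medians. Named are the members, the next 5 genes in the order of rises, mucins with any reads, up to 3 called rises and 3 called falls of each list, neighbours within 100 kb, markers and the 5 genes closest in pattern, and further list genes named were chosen after their values were seen. Alternatives covered the pseudocount, the minimum level, scaling, the replicate block, eBayes settings, protein-coding genes alone and each replicate left out. Some genes counted in the lists or among the neighbours are not reported here by name. The procedure was tested on simulated data. Sequence steps used Biopython 1.88 and figures matplotlib 3.10.9 in Python 3.11.15.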

Additional observations from a re-analysis of the deposited data

How the results depend on the processing

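All differences for MUC5AC, MUC5B and MUC1 stayed above 0 under the alternatives run. The balance of higher and lower calls did turn with scaling. Over all genes it went from 1443 higher and 2874 lower to 3923 and 122 with upper quartile scaling and to 3113 and 1066 with TPM, and among signals and factors from 3 and 11 to 11 and 0 and to 8 and 5. Values moved by more than the replicate SD were 2.10 for MUC5AC with TPM, 1.90 for MUC5B with a pseudocount of 0.1 and 1.93 with TPM, and, for MUC1, 0.47 and 0.23 with pseudocounts of 0.1 and 0.5, 0.19 with upper quartile scaling and 0.39 with TPM. With one library left out the differences ran from 1.68 to 1.96 for MUC5AC, 1.37 to 1.61 for MUC5B and 0.11 to 0.18 for MUC1. Reads thinned to the shallowest library, chosen after seeing the data, gave ratios of 4.32, 4.08 and 1.69. The median over all tested genes was -0.04, and moved to 0.18 with upper quartile scaling and 0.08 with TPM. The 4317 calls over all genes became 2711 without 10 Gy replicate 1 and 2651 without 10 Gy replicate 2, within a range of 2651 to 3975 over the libraries left out. Calls among O-glycan initiation genes were 2 with a minimum of 5 FPKM, with upper quartile scaling and with TPM, and 3 with any library left out. Among extension and capping genes they were 3 with no filter and 2 to 6 with a library left out. Among folding and release genes they were 5 with no filter and 5 to 7 with a library left out. Among MUC1 shedding and tail genes they were 12 with upper quartile scaling, 10 with TPM and 3 to 6 with a library left out. Among mucin-like glycoproteins they were 0 with upper quartile scaling, 1 with TPM, median-of-ratios scaling, a minimum of 0.1 FPKM, no intensity trend or robust eBayes, and 1 to 2 with a library left out. Among secreted mucins 1 gene, OVGP1, was called with a minimum of 0.1 FPKM and with no filter. The cause of these moves was not tested, other than that a filter changes which genes are tested. The upper quartile was taken over values above 0. Genes above 0 numbered 22169 to 23975 per library at 0 Gy and 24876 to 26496 at 10 Gy. The part of this difference in the turn of calls with that scaling was not tested. Low read numbers, at most 115 in any library, limit MUC1, MUC2, MUC4 and MUC6.

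Deviations of same-numbered libraries correlated at -0.040, -0.035 and -0.10, so no pairing by replicate number was seen. With 3 libraries at each dose these values cannot exclude it. With the replicate block 3503 genes were called, and 3 of the MUC1 shedding and tail genes in place of 6. Of the list and marker genes named, TFF1 and TFF2 (limma adjusted p = 0.0690 and 0.0696), ADAM9, ADAM10, C1GALT1C1, CD164, CD44, ERN1, GALNT13, GCNT1, IL4R, TOMM70 and VAMP8 were not called with the block. FOS and PODXL2 of the lists, not called without it, were called lower with it (limma adjusted p = 0.0316 and 0.0308).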
